A study of Mus musculus with 2 samples.

Results

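Sprouty and Spred proteins and the ETV transcription factors Etv1, Etv4 and Etv5 were followed in ATDC5 cells, a mouse chondrogenic (cartilage-forming) cell line. These 9 genes, Spry1, Spry2, Spry4, Spred1, Spred2, Spred3, Etv1, Etv4 and Etv5, were taken as a named set of genes that respond to ERK signalling, and each was matched by symbol through its RefSeq accession, out of 20433 genes that the array named by symbol. All 9 were present, with 11 probes in all, because Etv1 and Etv4 had 2 probes each. The study compared a stable line labelled as overexpressing HES1, a DNA-binding transcriptional repressor downstream of Notch, with a control line that was labelled as overexpressing GFP, the green fluorescent protein. Both lines were made by lentiviral transduction and were grown for 3 days as a monolayer on 60 mm dishes before total RNA was taken. The labels used here do not give the promoter that drove either transgene, the species of the HES1 sequence or the number of clones in a line.

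Each RNA was measured on its own Agilent array in a single colour, and the arrays shared a slide. With 1 array per group no difference has a replicate check, so no p-value is given and genes are described by size. A gene was counted as higher or lower at a difference of 2-fold or more. Signals are scanner units scaled so that the 75th percentile of either array is 1057.2, and they can be compared between arrays for a probe but not between probes. Of the spots, 56.6% were well above background on the HES1 array and 54.6% on the GFP array. A probe that was well above background on 1 array only is given a bound, "at least N-fold", which sets the bright signal against the higher of the dim signal itself and the array's detection limit, the lowest signal of any probe well above background there (39.0 for HES1 and 38.1 for GFP). The error of a log2 difference is that of the scanner software, with a median of 0.20 over 14273 measured genes, and it leaves out differences between cultures. A bound leaves this error out, so it is not a guaranteed minimum. The single mouse Hes1 probe stayed at background on both arrays (10.3 in the line labelled HES1 and 10.2 in the line labelled GFP), so it checked neither label. Of 8 chondrocyte markers, 6 were measured, 5 of them on both arrays. The 6 had log2 differences between -1.04 and -0.13, with a median of -0.63 (-0.47 by bounds), and 1 was at least 2-fold lower (0 by bounds). Sox6 was seen on the GFP array only, and Hapln1 and Matn1 were below background on both arrays. Sox9, Col2a1 and Acan read 3227, 7379 and 137 in the line labelled HES1 and 3683, 13796 and 178 in the line labelled GFP. Of 7 macrophage markers, 6 had a probe and 3 were well above background on an array, with 0 past 2-fold either way. By its brightest probe Csf1r read 2030 in the line labelled HES1 and 1978 in the line labelled GFP. A second Csf1r probe read 885 and 1137 in the same order, and another was below background on both arrays. Cd14 read 499 in the line labelled HES1 and 542 in the line labelled GFP. Lyz2 and Tyrobp were below background on both arrays, and Ptprc was seen on the HES1 array only, at 47.8 against 25.2. Of the 6 hypertrophic chondrocyte or osteoblast markers, 2 were at least 2-fold lower and 0 higher. Among measured endothelial, adipocyte and neural markers, 0 of 2, 0 of 2 and 2 of 3 (1 each way) passed 2-fold. For all measured genes the shares past 2-fold were 11.1% higher and 4.95% lower. The endothelial count rests on the brighter probe of Kdr, at 0.06, while its second probe, with 9 spots per array, read 480 in the line labelled HES1 and 10.8 in the line labelled GFP, at least 12.6-fold higher. The part of other cell types in the results was not tested. In bulk RNA, fewer cells that express a gene and less of its RNA per cell cannot be told apart.

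When a growth factor such as an FGF binds its receptor tyrosine kinase, RAS activates the kinases RAF, MEK and ERK in turn. ERK signalling switches on genes that damp it: Sprouty proteins act between the receptor and RAF, and Spred proteins bring the RAS inhibitor neurofibromin to the membrane. It also switches on the PEA3 group of ETS transcription factors, ETV1, ETV4 and ETV5, partly by lifting the repressor Capicua (CIC) from their genes. In growth plate cartilage FGF receptor signalling restrains chondrocyte proliferation and differentiation, and mice without Spred2 are dwarfed.

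The RefSeq table of promoters (assembly GRCm38.p6) held 9 windows for 7 of the genes, each running from 250 bases before to 50 bases after a transcription start, and held none for Spry4 or Etv4. Motifs linked to the regulators of these genes were searched on both strands: the Capicua octamers TGAATGAA and TGAATGGA, the HES class C site CACGCG, the E box CACGTG, the N box CACNAG and the ETS site CCGGAAG. The related octamer TGAATGGG was added after the sequence of the second Etv5 window had been seen. Across all 32851 windows in the table TGAATGAA was present in 1.30%, TGAATGGA in 1.21%, TGAATGGG in 1.08%, CACGCG in 9.27%, CACGTG in 7.15%, CACNAG in 42.5% and CCGGAAG in 8.86%. Etv5 is shown because it had the largest difference of the set, and its 2 windows stand for its 2 annotated starts. Spry1 and Spry2 are shown because each held a HES class C site, and Etv1 because its first window held an N box. Capitals mark the motifs, on either strand.
Etv5, first start, chr16:22439521-22439820, minus strand: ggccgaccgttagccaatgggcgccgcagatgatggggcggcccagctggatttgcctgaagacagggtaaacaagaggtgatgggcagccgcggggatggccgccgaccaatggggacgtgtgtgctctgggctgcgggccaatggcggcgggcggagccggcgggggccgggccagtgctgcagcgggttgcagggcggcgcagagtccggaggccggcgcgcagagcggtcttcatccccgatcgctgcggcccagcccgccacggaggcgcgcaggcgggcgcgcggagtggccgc
Etv5, second start, chr16:22438319-22438618, minus strand: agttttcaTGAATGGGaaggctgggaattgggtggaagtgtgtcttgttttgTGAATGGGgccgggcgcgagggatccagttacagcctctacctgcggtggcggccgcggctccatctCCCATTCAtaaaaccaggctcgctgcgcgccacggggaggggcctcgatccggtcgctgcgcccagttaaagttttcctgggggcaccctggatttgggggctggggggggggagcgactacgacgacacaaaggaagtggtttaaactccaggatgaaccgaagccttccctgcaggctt
Etv1, first start, chr12:38779832-38780131, plus strand: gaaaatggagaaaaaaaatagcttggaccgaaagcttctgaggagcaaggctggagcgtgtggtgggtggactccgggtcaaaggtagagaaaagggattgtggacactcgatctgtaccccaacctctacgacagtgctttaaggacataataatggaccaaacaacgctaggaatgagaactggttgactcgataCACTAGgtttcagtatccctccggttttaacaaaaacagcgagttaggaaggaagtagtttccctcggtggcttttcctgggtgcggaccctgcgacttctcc
Spry1, chr3:37639697-37639996, plus strand: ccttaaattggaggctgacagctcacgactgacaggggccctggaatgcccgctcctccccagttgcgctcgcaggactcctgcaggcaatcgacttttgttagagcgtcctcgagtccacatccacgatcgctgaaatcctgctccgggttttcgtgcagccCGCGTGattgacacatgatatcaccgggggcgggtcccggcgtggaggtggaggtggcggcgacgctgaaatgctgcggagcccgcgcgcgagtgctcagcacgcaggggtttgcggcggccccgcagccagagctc
Spry2, chr14:105896770-105897069, minus strand: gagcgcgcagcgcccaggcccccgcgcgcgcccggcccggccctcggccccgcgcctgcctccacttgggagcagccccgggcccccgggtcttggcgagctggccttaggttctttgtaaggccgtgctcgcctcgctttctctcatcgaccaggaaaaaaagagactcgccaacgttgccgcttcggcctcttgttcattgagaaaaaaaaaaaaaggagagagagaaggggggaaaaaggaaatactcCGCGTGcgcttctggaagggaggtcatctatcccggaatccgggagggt

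The second Etv5 window held TGAATGGG 3 times, and it was the only 1 of the 32851 windows with at least 3 copies. Because this octamer was picked from that same window, nothing can be concluded from its standing out. The first Etv5 window held none of the motifs searched. Both Sprouty windows held CACGCG once, 87 bases before the start of Spry1 and at the second transcribed base of Spry2. The Spred3 window held TGAATGAA, and the windows of Spred1, Spred2 and the second Etv1 start held none of the motifs. The first Etv5 window was 74.0% G and C and the Spred1 window 72.3%, whereas the Etv1 windows were 48.7% and 44.0%, against a median of 52.7% over all windows. The Spry1 and Spry2 windows were 64.3% and 62.7%. They held 29 and 28 CG pairs (a C followed by a G), against a median of 7 over all windows. CACGCG itself holds CG, so its share of 9.27% comes from windows mostly poorer in CG. These matches are letters in a window and do not show that a factor binds there.

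Each of the 3 ETV genes was at least 2-fold higher in the line labelled HES1. No Sprouty or Spred gene was past 2-fold among the 4 that could be measured. For Spry2, Etv1 and Etv4 this split rests on where the 2-fold line falls. Their log2 intervals from the scanner software's error overlapped, at 0.32 to 1.61, 0.49 to 2.29 and 0.87 to 1.71. Each of these intervals included 2-fold, so they do not separate Spry2 from Etv1 or Etv4. Only the interval of Etv5, 2.08 to 2.89, lay wholly above 2-fold. Of the 9 genes, 7 were measured, that is, had a probe well above background on the HES1 or the GFP array, and 6 were seen on both. Among those 7, 3 were higher, 0 were lower and 4 lay within 2-fold. Etv1 was among the 7 only through its signal on the HES1 array. Counting Etv1 by its bound left the same counts, but the bound leaves out its technical error of 0.46. Over the whole array 11.1% of 14273 measured genes passed 2-fold upwards in the line labelled HES1 and 4.95% downwards, or 9.49% and 4.47% by bounds. Of the 6 genes seen on both arrays, 2 were higher and 0 lower, beside 7.04% and 4.41% of all genes seen on both arrays. The median log2 difference of the 7 genes was 0.96, which is the value of Spry2, and that of all measured genes was -0.06. The median fell to 0.53 over the 6 genes seen on both arrays, and to 0.35 under normexp with quantile normalization, described below.

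**Figure D1:**
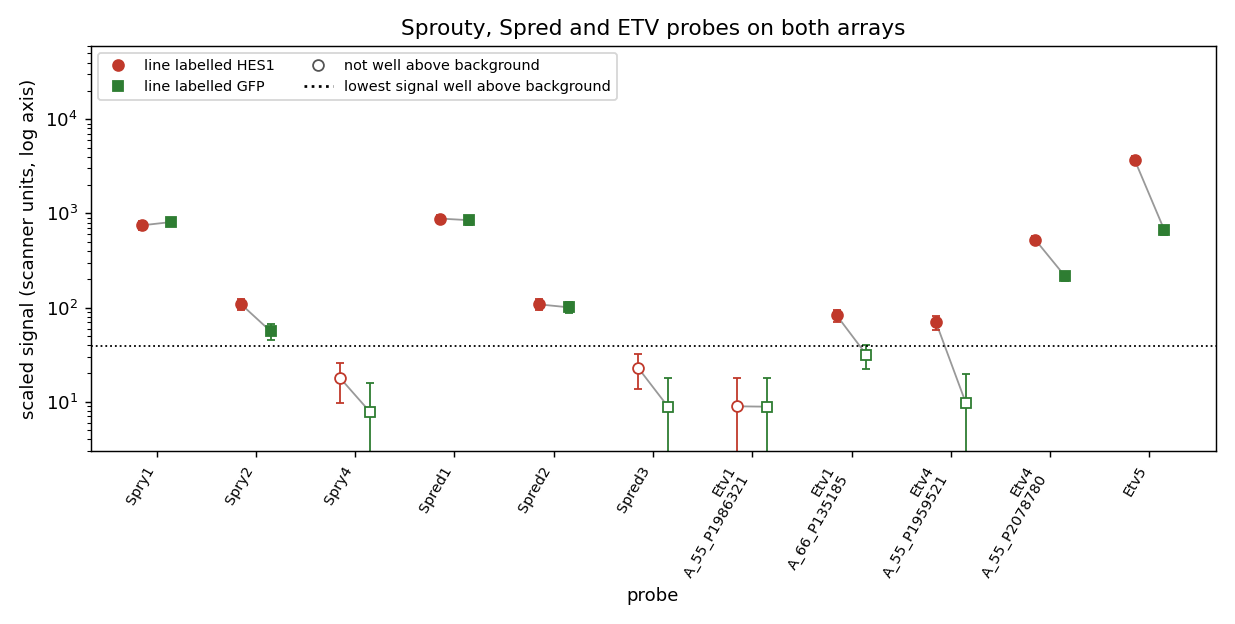
Scaled signal (scanner units, log axis) of each of the 11 probes, with the line labelled HES1 (red circles) left of the line labelled GFP (green squares). Bars are the scanner software's error, open symbols were not well above background, the dotted line is the lowest signal well above background, and bars that reach the bottom edge run below it; the Etv5 probe reads 3717 against 664, while the Spry1 and Spred1 pairs are nearly level.

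Etv5, also called ERM, is the ETV factor with the largest difference of the set. Its single probe had a signal of 3717 in the line labelled HES1 and 664 in the line labelled GFP. The log2 difference was 2.49 with a technical error of 0.21, a 5.60-fold higher signal. Before any correction the median pixel of the Etv5 spot was 2174 over a local background of 42 on the HES1 array, and 480 over 41 on the GFP array, so neither value lay near background. Of all measured genes, 4.11% had a higher difference than Etv5. With 2 arrays the pattern of a gene is a single difference, and the nearest to that of Etv5 among 3244 genes of like signal were Socs1, Fabp3 and Cst6. Socs1, an inhibitor of cytokine receptor signalling, differed by 2.50 on the log2 scale, Fabp3, a fatty acid binding protein, by 2.45, and Cst6, a cysteine protease inhibitor, by 2.54.

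Etv4, also called PEA3, read higher in the line labelled HES1 by both of its probes, but only the brighter probe was seen on both arrays. The brighter probe, A_55_P2078780, read 525 in the line labelled HES1 and 215 in the line labelled GFP. This was a log2 difference of 1.29 with a technical error of 0.21, or 2.44-fold. The dimmer probe, A_55_P1959521, read 69.7 in the line labelled HES1 and 9.75 in the line labelled GFP, where it was not well above background. Its signal was therefore at least 1.83-fold higher. Of all measured genes, 8.76% had a higher difference than Etv4. When median spot signals were corrected by normexp (offset 50) and then quantile normalized, the brighter probe of Etv4 had a difference of 0.89, within 2-fold.

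Etv1, also called ER81, was seen on the HES1 array only. Probe A_66_P135185 read 82.7 in the line labelled HES1 and 31.5 in the line labelled GFP, at least 2.17-fold higher. That bound leaves out the technical error of 0.46 on the log2 scale. Its spot had a median pixel of 139 over a background of 37 on the HES1 array and 107 over 41 on the GFP array. The second Etv1 probe, A_55_P1986321, was below background on both arrays (8.95 in the line labelled HES1 and 8.88 in the line labelled GFP), so the higher signal of Etv1 rests on 1 spot per array. Under normexp with quantile normalization the difference of Etv1 was 0.35. The ETV proteins share a closely similar ETS domain, and whether a probe reads more than 1 of their transcripts was not checked, because the probe sequences were not used here.

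No measured Sprouty gene was past 2-fold. Spry1, a feedback inhibitor of FGF signalling, read 747 in the line labelled HES1 and 811 in the line labelled GFP, a log2 difference of -0.12 that was smaller than its technical error of 0.21. Spry2, which binds the adaptor GRB2 and the ubiquitin ligase CBL, read 109 in the line labelled HES1 and 55.9 in the line labelled GFP. Its log2 difference of 0.96, with a technical error of 0.33 and a 95% technical interval of 0.32 to 1.61, was 1.95-fold and fell just short of 2-fold. Its spot had a median pixel of 157 over a background of 38 on the HES1 array and 118 over 40 on the GFP array, and 11.4% of measured genes had a higher difference. At a threshold of 1.5-fold Spry2 joined the ETV genes, which made 4 higher and 0 lower, beside 17.4% and 14.6% of all measured genes. Under normexp with quantile normalization its difference was 0.37. Spry4 was below background on both arrays, at 17.8 in the line labelled HES1 and 7.79 in the line labelled GFP, and no fold is given.

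The Spred genes that could be measured were close to level between the lines. Spred1, which recruits neurofibromin to the membrane, read 882 in the line labelled HES1 and 847 in the line labelled GFP, a log2 difference of 0.06. Spred2, which acts in the same way, read 108 in the line labelled HES1 and 101 in the line labelled GFP, a difference of 0.10. The technical errors were 0.21 for Spred1 and 0.27 for Spred2, larger than the differences, and the 95% technical intervals ran from -0.34 to 0.46 and from -0.42 to 0.63. Both intervals leave out a 2-fold difference, as far as technical error goes. Spred3, which lacks a working KIT-binding domain, was below background on both arrays (22.9 in the line labelled HES1 and 8.90 in the line labelled GFP).

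**Figure D2:**
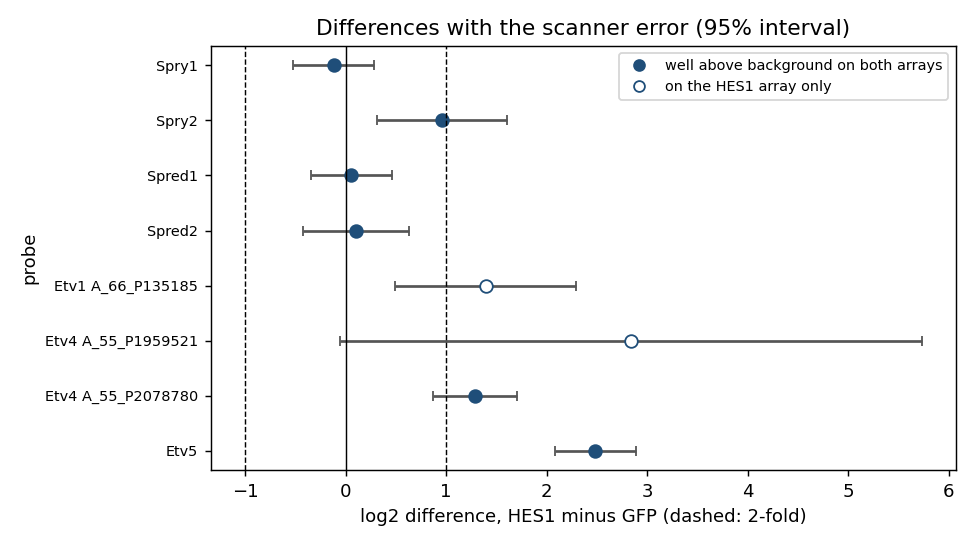
Log2 difference (HES1 minus GFP) of the 8 probes that passed background on the HES1 array or on both arrays, with 95% intervals from the scanner software's error; dashed lines mark 2-fold. Etv5 at 2.49 is the only probe whose whole interval lies above 2-fold, while the intervals of Spry1, Spred1 and Spred2 lie within 2-fold.

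**Figure D3:**
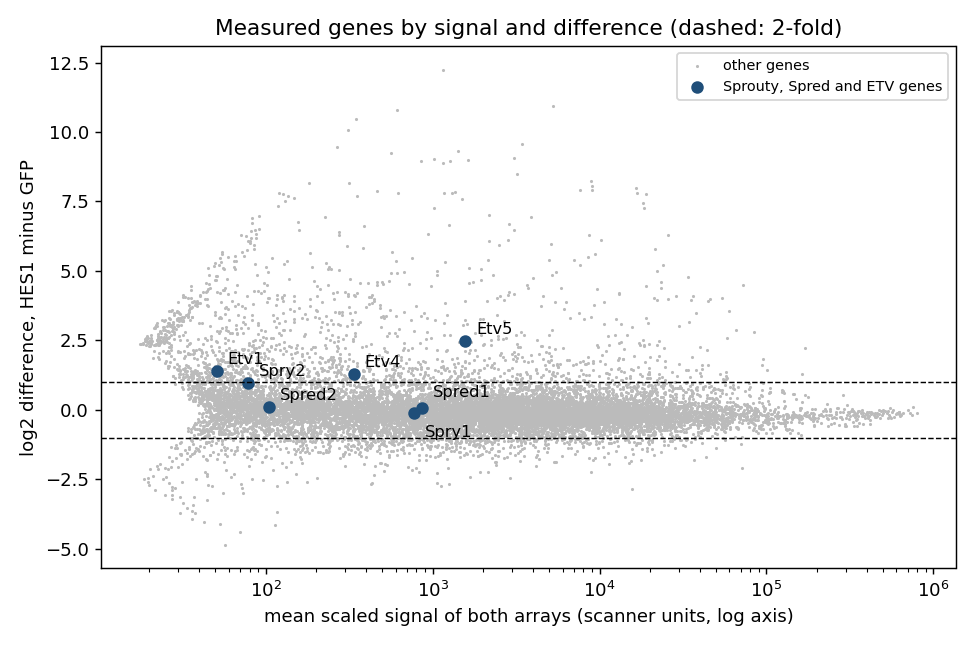
Log2 difference (HES1 minus GFP) against the mean scaled signal of both arrays (log axis) for 14273 measured genes (grey), with the 7 measured Sprouty, Spred and ETV genes in blue. Etv1 and Spry2 lie at the dim end, where grey points spread widely, and Etv4 and Etv5 lie among brighter genes.

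Precision fell with signal, which bears on Spry2, Spred2 and Etv1. The array holds 235 probes that were spotted repeatedly, kept 8 or more spots and passed background on both arrays. The log2 difference of their spots had a median SD of 0.06 for the 214 with a mean signal of 200 or more. For the 21 with a mean signal under 200 the median SD was 0.21, with a 90th percentile of 0.33. Each of the 11 Sprouty, Spred and ETV probes had 1 spot per array.

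The surrounding pathway was described through 7 gene lists. Other transcription outputs of ERK were the list with the highest median in the line labelled HES1. Among 14 measured outputs, all on both arrays, 10 passed 2-fold upwards and 0 downwards, with a median log2 difference of 1.73. Of all genes seen on both arrays, 7.04% passed 2-fold upwards and 4.41% downwards. Fos, an AP-1 subunit, read 691 in the line labelled HES1 and 57.8 in the line labelled GFP, with 10 spots per array and a difference of 3.58. The transcription factor genes Egr1, Egr2 and Fosl1 were 11.2-fold, 9.80-fold and 9.59-fold higher. The 4 that stayed within 2-fold were Ccnd1, Myc, Ier3 and Phlda1, at 0.79, 0.94, 0.92 and 0.67.

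Of 16 other brakes on RAS and ERK that were measured, all on both arrays, 3 were higher and 0 lower, with a median of 0.09. The shares of all genes seen on both arrays were 7.04% higher and 4.41% lower. Under quantile normalization 1 was lower. Dusp4 and Dusp6, phosphatases that inactivate ERK and are also counted among its outputs, were 5.14-fold and 4.22-fold higher. Dusp6 read 6342 in the line labelled HES1 and 1502 in the line labelled GFP. Errfi1, an inhibitor of the EGF receptor, was 2.72-fold higher. Il17rd, a membrane inhibitor of FGF signalling also called Sef, had a difference of -0.69, and Dusp7 also of -0.69. Cbl, a ubiquitin ligase that acts on activated receptors, had the lowest difference of the list, -0.97. Nf1, which encodes the neurofibromin that Spred proteins recruit, was at 0.06.

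The genes between receptor and nucleus, from adaptors and RAS proteins to the kinases, stayed within 2-fold. All 26 genes of the RAS-RAF-MEK-ERK core were measured on both arrays and 0 were past 2-fold, with a median of -0.11. Of all genes seen on both arrays, 7.04% were higher and 4.41% lower. Map2k1, which encodes MEK1, had the largest difference at 0.98, at 11968 in the line labelled HES1 and 6075 in the line labelled GFP. Under quantile normalization, median scaling and loess, 1 of the 26 passed 2-fold.

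Of 17 measured ligands of receptor tyrosine kinases, 9 were higher (7 by bounds) and 1 lower, beside 11.1% and 4.95% of all measured genes (9.49% and 4.47% by bounds), with a median of 1.02, or 0.54 by bounds. Btc, an EGF receptor ligand, read 1087 in the line labelled HES1 and 58.6 in the line labelled GFP, 18.6-fold higher. Ereg, another EGF receptor ligand, was 3.64-fold higher, and Areg, seen on the HES1 array only, at least 1.19-fold higher. Fgf9, a ligand of FGF receptors in cartilage, was seen on the GFP array only and was at least 4.06-fold lower. The other measured FGF ligands did not share that direction. Fgf7 read 33962 in the line labelled HES1 and 15192 in the line labelled GFP, 2.24-fold higher. Fgf1, seen on the HES1 array only, was at least 1.46-fold higher, and Fgf18 was at -0.02. Of 17 measured receptors, 3 were higher (2 by bounds) and 1 lower, with a median of -0.01, beside the same shares of all genes. With the median over a gene's probes they were 4 and 2. Epha2, also listed among the outputs of ERK, was 3.49-fold higher and Ddr1, a collagen receptor, 2.89-fold lower. Egfr was seen on the HES1 array only and was at least 1.30-fold higher. Fgfr1 had differences of 1.44 and 1.46 by 2 of its probes and 0.22 by the other. Fgfr2 had -0.98 by its brightest probe and -1.23 by its second, and the second probe of Kdr is given above.

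Partners of Sprouty and Spred proteins and regulators of the PEA3 factors were level as a list. Of 13 measured, all on both arrays, 0 were past 2-fold, with a median of -0.04. The shares of all genes seen on both arrays were 7.04% higher and 4.41% lower. Nedd4, a ubiquitin ligase, had the largest difference at -0.99, and under quantile normalization 1 of the 13 passed 2-fold downwards. Cop1, part of a ubiquitin ligase that marks ETV proteins for degradation, had a difference of -0.01. No probe used here was named Cic, the gene of Capicua. Of 16 measured ETS factors outside the PEA3 group, 3 were higher and 0 lower, beside 11.1% and 4.95% of all measured genes, with a median of -0.01. Under quantile normalization 1 was lower, and under loess 4 were higher. Spdef was 2.92-fold higher and Etv6, a repressor, 2.41-fold higher. Elf1 was 2.76-fold higher by its brightest probe, and its second probe gave 0.74 on the log2 scale.

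**Figure D4:**
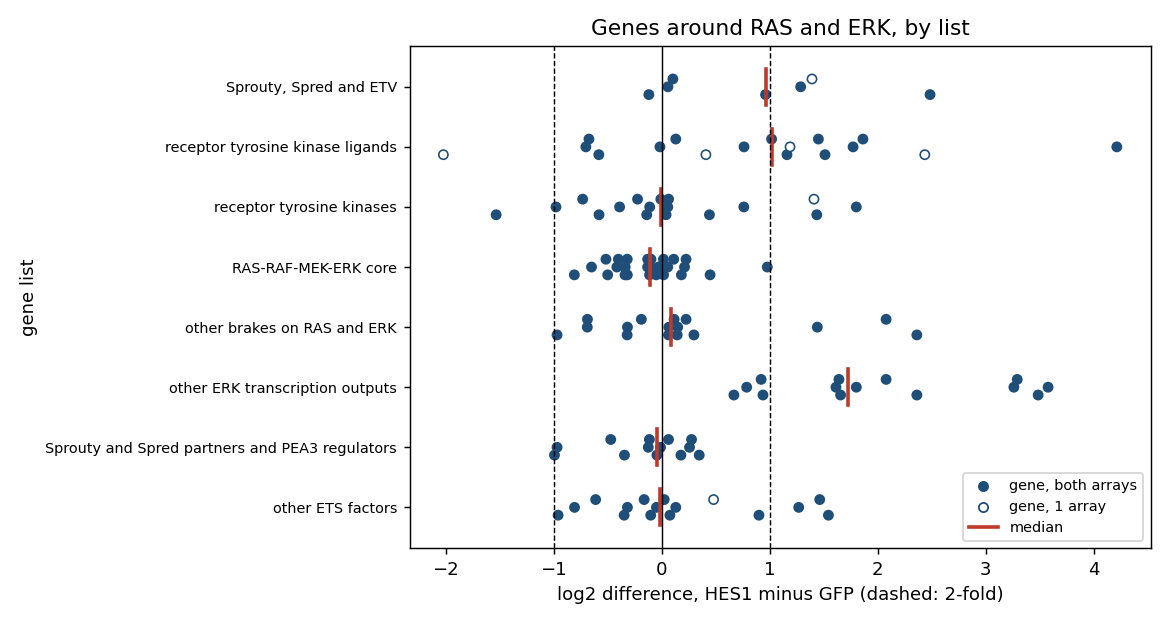
Log2 difference (HES1 minus GFP) of every measured gene in the Sprouty, Spred and ETV set and in the 7 pathway lists, with the median of each list in red and 2-fold dashed; open points were well above background on 1 array only. The outputs of ERK lie to the right at a median of 1.73, and the genes of the RAS-RAF-MEK-ERK core cluster near 0.

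Each difference was recomputed under the alternatives. Across the alternatives Etv5 ranged from 2.23 to 2.63 on the log2 scale. Etv4 by its brighter probe and Etv1 each fell below 2-fold under normexp with quantile normalization, at 0.89 and 0.35. Choosing the dimmer Etv4 probe, or Etv1 under any setting, sets a measured signal against a GFP signal that was not well above background, so larger values of these are not measured sizes, and the bounds above apply. Spry2 ranged from 0.37 to 0.99 and stayed under 2-fold throughout. Spry1, Spred1 and Spred2 stayed between -0.16 and 0.20.

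**Figure D5:**
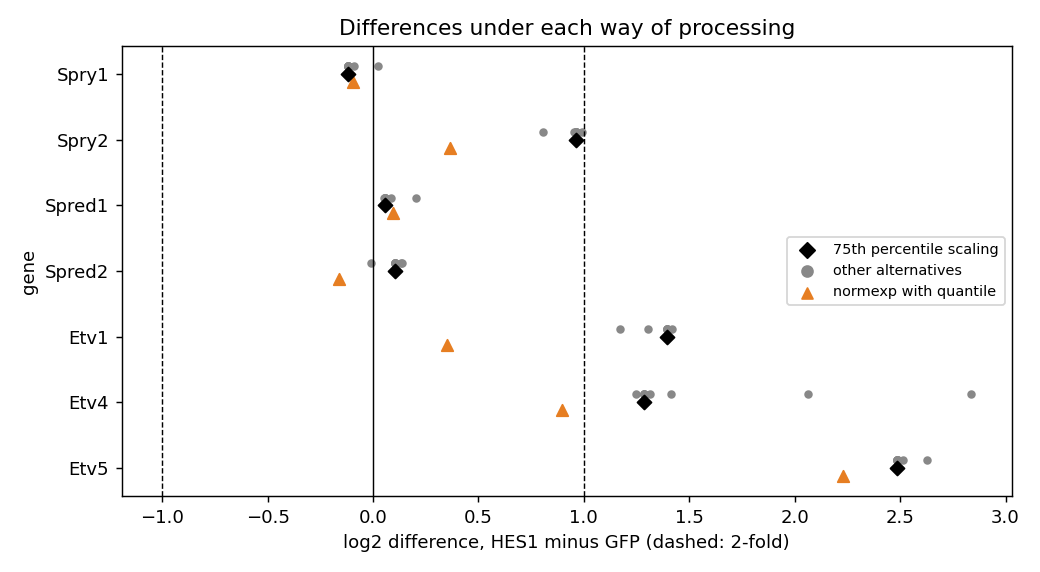
Log2 difference (HES1 minus GFP) of each measured gene under 75th percentile scaling (black diamonds), normexp with quantile normalization (orange triangles) and the other alternatives (grey), with Etv1 and the grey Etv4 points at 2.06 and 2.84 drawn against or including a GFP signal that was not well above background. Etv5 stays above 2-fold throughout, while the triangles of Etv1, Etv4 and Spry2 lie to the left of their diamonds and below 2-fold.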

How the data were processed

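Total RNA from 2 lines, labelled HES1 and GFP, was measured on 1 single-colour array each. Per the file headers, Agilent Feature Extraction 10.10.1.1 gave an intensity per spot after background subtraction and detrending, with no scaling between arrays. The deposited value table holds an intensity that equals this signal times 1 factor per array (1.53 for HES1 and 1.45 for GFP).

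Here log2 of the processed signal was taken minus the 75th percentile of each array over 59305 spots that are not controls. Spots with an outlier flag on either array (1053) were left out, none was saturated, and spots of a probe were averaged, leaving 54948 probes. Accessions gave 26869 probes a symbol through a RefSeq table of GRCm38.p6, used for names and promoter windows; the arrays are annotated on mm9. Each gene took the value of its brightest probe well above background on 1 array or both. No test was run, because each group held 1 array. The calculation was tested on simulated arrays.

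Other settings tried were a median scaling over probes detected on both arrays, quantile normalization, loess (span 0.3), the deposited values, normexp (offset 50) on median spot signals followed by quantile normalization, other filters and probe rules, outlier spots kept, and thresholds of 1.5-fold and 3-fold. Named genes were the 9 genes, Hes1, 3 chondrocyte markers, the 3 genes nearest to Etv5 and up to 4 genes past 2-fold in a list (the largest difference where none passed). The other named genes were chosen after their values were seen. The genes and lists were chosen with earlier results of these data known. Tools were Python 3.11.15, pandas 2.3.3, R 4.3.3 and limma 3.58.1.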

Additional observations from a re-analysis of the deposited data

How the results depend on the processing

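Of 3 summary values, the count of genes at least 2-fold lower stayed at 0 under every alternative run. The count at least 2-fold higher was 3 and became 1 under normexp with quantile normalization and 5 with no filter on dim probes. With only probes well above background on both arrays it was 2, because Etv1 dropped out. It was 4 at a 1.5-fold threshold and 1 at a 3-fold threshold. The additional 2 genes without a filter were Spry4 and Spred3, which lay below background on both arrays. The median difference of 0.96 became 0.35 under normexp with quantile normalization, 0.53 with probes well above background on both arrays and 1.19 with no filter. Normexp with quantile normalization changed the background correction, the input signal and the scaling together, and the cause was not tested. A loess fit moved the median of all measured genes by 0.13 on the log2 scale, and relative to it Etv5 stood at 2.56 and Spry2 at 0.88. Of all measured genes, 850 passed 2-fold upwards and 339 downwards under normexp with quantile normalization, against 1582 and 707. Of the single-gene values, 63 of 69 moved by less than the technical error, and 6 moved by more. Many of the 69 could hardly move, so the count of 63 is not a measure of robustness. Changed filters and kept outlier spots repeated the main value of every gene still measured. Deposited values are the same signal rescaled, and median scaling shifted all genes by 0.03. The 6 came from normexp with quantile normalization and from the choice of Etv4 probe. No paired analysis was possible because each group held 1 array. Brightness over background limits Spry2, Spred2 and Etv1, and leaves Spry4 and Spred3 unmeasured.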
